A study of Mus musculus with 20 samples.

Results

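The ETS factors described here are a list of 10 genes, Spi1, Spib, Fli1, Erg, Ets1, Ets2, Etv6, Elf1, Gabpa and Elk3, out of 24315 genes listed for each of 2 sorted populations of mouse bone marrow. Members were matched by symbol, and all 10 passed the filter on low values in both populations. LSK cells (lineage-negative, Sca1+, Kit+) hold the blood stem cells and early multipotent progenitors, and MEP are megakaryocyte-erythroid progenitors. Poly(A) RNA was measured in C57BL/6 mice of 4 genotypes, with 3 WT, 3 Dnmt3a-/-, 2 Bcor-/- and 2 Bcor-/-Dnmt3a-/- libraries per population (20 in all), and the LSK and MEP libraries of a given number came from the same mouse or pool. Bcor encodes a subunit of a variant Polycomb repressive complex and Dnmt3a a DNA methyltransferase. Both alleles were conditional and were deleted by Mx1-Cre, an interferon-inducible transgene that is active in many cell types besides blood stem cells. According to the study, deletion of Dnmt3a in the single knockout was partial, and the double knockout libraries came from leukemic mice, so that disease and genotype cannot be told apart. The first Bcor-/- library pooled 2 mice. The ages of the mice, and whether the sequenced WT mice carried the transgene or received the inducer, are not given in the sources used here. Deposited values are FPKM, fragments scaled by transcript length and library size, so levels may be compared between genes. Read depth is unknown, and no counting error can be given.

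All ETS factors bind DNA through a conserved winged helix-turn-helix domain that recognizes the core GGAA, and members differ mainly in flanking bases, partners and the cells that make them. In blood formation PU.1, the product of Spi1, drives myeloid and early lymphoid fates and opposes GATA1, while Fli1 and Erg maintain stem cells and megakaryocytes. Etv6 is a repressor needed by adult stem cells, Ets1 and Spib serve lymphocytes, Gabpa runs housekeeping genes with a beta subunit, and Elk3 acts with serum response factor.

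The promoters of the gene with the largest rise in LSK, of the gene that fell most clearly in LSK, and of the member that changed least in LSK are printed for reference, since ETS factors can act on each other's genes. RefSeq (GRCm38.p6) windows were found for 7 of the 10 members, namely Spib, Etv6, Elk3, Elf1, Gabpa, Erg and Ets2, and the 250 bases before the start are shown on the strand of the gene, with the core GGAA or its complement TTCC in capitals. Spib lies on the minus strand at chr7:44532072-44532321, Etv6 on the plus strand at chr6:134035450-134035699 and Gabpa on the plus strand at chr16:84834874-84835123. The sequence after the start matched the beginning of a GENCODE transcript for Etv6 and Gabpa, and no such match was found for Spib, whose start is given as in the RefSeq table.
Spib promoter: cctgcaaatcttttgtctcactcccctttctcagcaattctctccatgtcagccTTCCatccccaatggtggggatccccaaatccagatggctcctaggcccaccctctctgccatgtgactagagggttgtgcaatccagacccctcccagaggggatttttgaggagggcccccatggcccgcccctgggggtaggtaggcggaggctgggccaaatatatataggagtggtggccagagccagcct
Etv6 promoter: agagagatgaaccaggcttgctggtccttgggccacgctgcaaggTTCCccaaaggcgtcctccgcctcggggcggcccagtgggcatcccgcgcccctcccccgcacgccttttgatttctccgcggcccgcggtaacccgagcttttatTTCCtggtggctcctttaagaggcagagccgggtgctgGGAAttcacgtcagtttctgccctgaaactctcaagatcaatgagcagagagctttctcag
Gabpa promoter: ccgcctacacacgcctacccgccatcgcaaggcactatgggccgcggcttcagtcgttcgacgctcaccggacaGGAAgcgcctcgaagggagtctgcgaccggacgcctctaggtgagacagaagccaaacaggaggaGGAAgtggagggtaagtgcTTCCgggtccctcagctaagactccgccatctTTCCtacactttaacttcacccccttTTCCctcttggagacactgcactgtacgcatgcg
The core was found 1 time in the Spib window, 3 times in the Etv6 window and 5 times in the Gabpa window. It is a short word, present on either strand in 93.4% of 32851 promoter windows of the same length with a median of 3 matches, so its presence sets no gene apart. The longer site CCGGAAGT or its complement ACTTCCGG, found in 2.88% of windows, was in none of these 3 windows.

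Both double knockout animals stood apart from the other libraries and from each other, and this bears on every value below. Across all genes tested, the Pearson correlation of log2 values between the replicates was 0.849 in LSK and 0.815 in MEP for the double knockout, against 0.971 or more within each of the other genotypes. In double knockout mouse 1 the LSK and MEP libraries correlated at 0.968, against 0.77 to 0.868 in the other 9 mice or pools. LSK libraries of double knockout mice had low Kit (47.7 and 19.4 FPKM, against 148 to 174 in WT) and a low summed level of 9 stem cell markers (179 and 379, against 1159 to 1368). Of these markers Ly6a, which encodes the Sca1 antigen of the LSK gate, was not low. It measured 63.5 and 220 FPKM in mice 1 and 2 against 59.8 to 70.7 in WT. In double knockout LSK the 10 erythroid markers summed to 5950 and 20930 FPKM, against 126 to 239 in WT. The 5 B cell markers there summed to 1457 and 1254, against 34.5 to 64.8. In bulk RNA, fewer cells of a type and less RNA per cell cannot be told apart. Bcor RNA stayed at 22.4 and 23.2 FPKM in Bcor-/- LSK against 29.5 to 32.4 in WT, and was at 24.0 and 37.4 in double knockout mice 1 and 2. Dnmt3a RNA was 16.1 to 19.9 FPKM in WT LSK, 11.3 to 16.9 in Dnmt3a-/- LSK, and 10.4 and 10.9 in the double knockout. In MEP it was 5.49 to 6.64 in WT, 2.56 to 5.4 in Dnmt3a-/-, and 6.85 and 3.44 in double knockout mice 1 and 2, so mouse 1 was above all WT libraries. A gene-level value also counts reads outside the deleted exons, so neither gene's level checks the deletion.

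In normal progenitors the ETS factors spanned a wide range of levels. In WT LSK the order by mean FPKM (SD, n = 3) was Etv6 at 144 ± 16, Elf1 at 110 ± 9.69, Erg at 84.0 ± 5.16, Spi1 at 81.2 ± 2.07, Elk3 at 35.5 ± 0.974, Fli1 at 34.8 ± 1.13, Gabpa at 23.3 ± 0.971, Ets1 at 12.9 ± 3.10, Ets2 at 11.1 ± 1.38 and Spib at 2.36 ± 1.80. The values of Erg and Spi1, of Elk3 and Fli1, and of Ets1 and Ets2 overlapped, and the other neighbours in that order did not. In WT MEP Elf1 had the highest mean with 47.8 FPKM, followed by Etv6 with 30.8 and Gabpa with 24.9. The values of Elf1 and Etv6, and of Etv6 and Gabpa, overlapped. Fli1, Spi1, Erg, Elk3, Ets1 and Ets2 lay between 10.4 and 4.49 FPKM with overlapping neighbours, and Spib was again lowest with 1.39. Each population has a table of its own and a common scale is not stated, so their levels are set side by side without a test. On that footing Erg was 10 times, Spi1 8.82 times and Elk3 7.13 times as high in WT LSK as in WT MEP, whereas the Gabpa ratio was 0.937 and its libraries overlapped between populations.

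**Figure D1:**
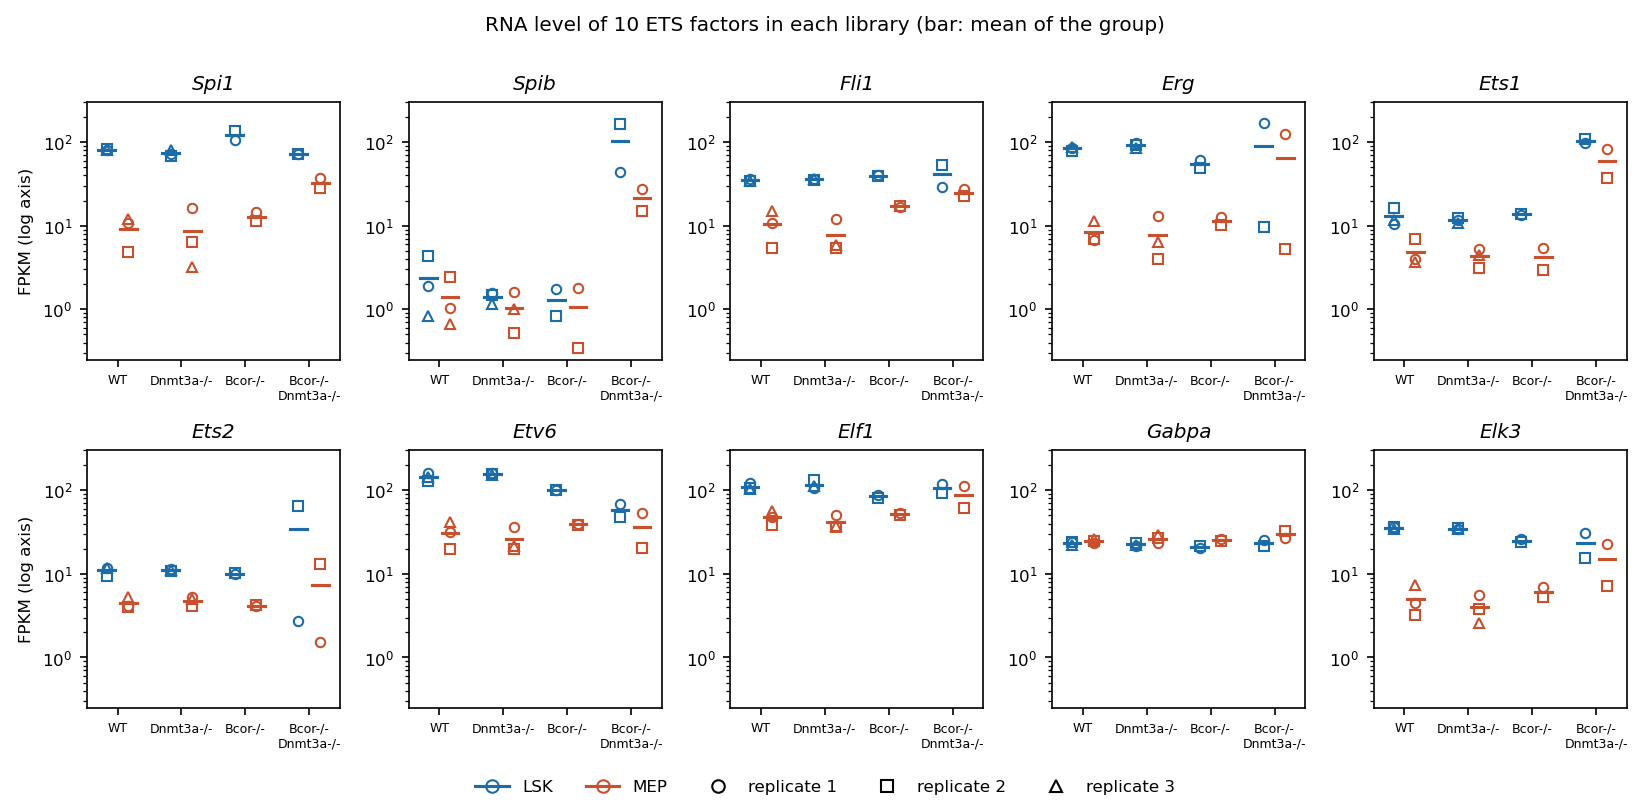
FPKM of each of the 10 ETS factors on a log axis, by genotype, in LSK (blue) and MEP (orange); symbols are single libraries and bars are group means. Spib and Ets1 of both double knockout mice lie above all other libraries in both populations, while Erg and Ets2 of the 2 double knockout mice lie on opposite sides of WT.

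The first question was what loss of both genes did to these factors in the stem cell gate. Calls follow the study's thresholds, an unadjusted p under 0.05 in limma and a fold change above 1.5, on log2(FPKM + 1). In double knockout LSK 4 of the 10 members were called, 2 higher (Spib, Ets1) and 2 lower (Etv6, Elk3). Over all 11952 genes tested 28.3% were called, 15% higher and 13.3% lower, so the share of members called was near that of genes at large. The median log2 fold change was -0.0347 over the members and 0.0189 over all genes. With Benjamini-Hochberg adjusted p in place of p, 3 members were called against 23.7% of all genes.

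Spib encodes Spi-B, the PU.1 relative of B cells and plasmacytoid dendritic cells. In LSK it measured 1.9, 4.35 and 0.833 FPKM in WT, with 1.55, 1.49 and 1.15 for Dnmt3a-/-, 1.75 and 0.832 for Bcor-/-, and 43.6 and 164.5 for the double knockout. Both double knockout libraries were above all 8 others, and they differed 3.78-fold from each other. The log2 fold change against WT was 4.82 (SE 0.56, limma adjusted p = 0.000356), 3.87 without double knockout mouse 2 and 5.76 without mouse 1 (fits that assume the remaining mouse to vary like the other groups). The rise in MEP was of the same sign. Spib there measured 1.02, 2.46 and 0.672 FPKM in WT, against 1.62, 0.520 and 1.0 for Dnmt3a-/-, 1.82 and 0.342 for Bcor-/-, and 27.7 and 14.9 for the double knockout, with a log2 fold change of 3.23 (SE 0.45, limma adjusted p = 0.00161). In LSK of the other genotypes Spi1 RNA far exceeded that of Spib. The Spi1 to Spib ratio in LSK ran from 19.2 to 161 in the 8 libraries of the other genotypes and was 1.66 and 0.440 in the double knockout, so that in mouse 2 Spib exceeded Spi1. In MEP the ratio was 1.95 to 18.1 in WT and 1.34 and 1.9 in the double knockout.

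Ets1, a factor of T, B and natural killer cells, rose in both populations, with little difference between the mice in LSK. LSK libraries held 10.5, 16.4 and 11.8 FPKM in WT, with 11.8, 12.3 and 10.8 for Dnmt3a-/-, 13.4 and 14.0 for Bcor-/-, and 97.8 and 107.6 for the double knockout. The double knockout values differed 1.10-fold from each other and were far above the rest (log2 fold change 2.92, SE 0.17, limma adjusted p = 3.43e-05). In MEP, Ets1 measured 3.95, 6.88 and 3.70 FPKM in WT, with 5.23, 3.14 and 4.52 for Dnmt3a-/-, 5.44 and 2.93 for Bcor-/-, and 83.6 and 36.8 for the double knockout (log2 fold change 3.32, SE 0.39, limma adjusted p = 0.000889). The effect did not differ detectably between populations (LSK minus MEP -0.39, SE 0.39, limma adjusted p = 0.494), but ran to -1.04 (limma adjusted p = 0.0436) without double knockout mouse 2 and to 0.26 without mouse 1. Within MEP the profile of Ets1 over 10 libraries was closest to that of Spib among all genes tested, with a root mean square difference of centred log2 values of 0.147. In LSK the closest genes to Ets1 were Hs3st3b1 (0.158) and E2f2 (0.173), and to Spib they were Gimap3 (0.395) and Grap (0.404). Hs3st3b1 reached the filter on low values only through the double knockout libraries. It measured 6.57 and 7.41 FPKM there and 0.0571 to 0.261 in LSK of the other genotypes.

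Lymphoid markers moved in the same libraries. In LSK all 5 B cell markers were at 1 FPKM or more in both double knockout libraries, with the sums given above, and the 5 T cell markers summed to 45.1 and 169.8 FPKM against 3.35 to 10.2 in WT. The 5 markers of plasmacytoid dendritic cells summed to 221.5 and 1990 FPKM against 122 to 205 in WT, and mouse 2, with the higher sum, also had the higher Spib. The sum of mouse 1 was close to the 217.6 of the first Bcor-/- library. In mouse 1 Siglech (3.27) and Irf8 (50.8) were within the WT range. Ccr9 (0.841) was below that range, and Bst2 (120) and Ly6d (46.4) were above it. In MEP the plasmacytoid dendritic cell markers summed to 124 and 145.7 FPKM in mice 1 and 2 against 66.2 to 73.7 in WT, and there mouse 1 had the higher Spib. In MEP the B cell markers summed to 996 and 142 FPKM against 12.5 to 55.1, and the T cell markers to 34.8 and 9.78 against 1.23 to 1.76. Their part in the Spib and Ets1 values was not tested.

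**Figure D2:**
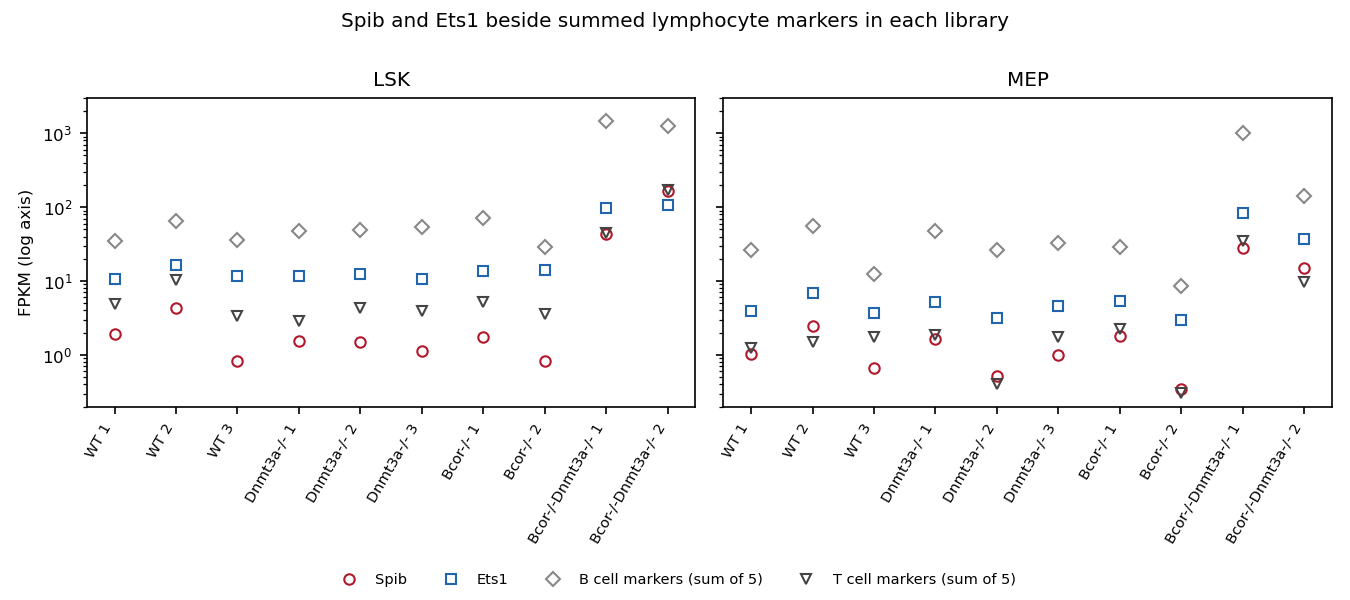
FPKM of Spib and Ets1 and the summed FPKM of 5 B cell and 5 T cell markers in each library, on a log axis, in LSK (left) and MEP (right). All 4 measures are highest in the 2 double knockout libraries of each population.

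Etv6, which encodes a repressor and was the most abundant member of WT LSK, fell. Its LSK values were 160.0, 127.9 and 144.6 FPKM in WT, with 160.8, 157.6 and 151.2 for Dnmt3a-/-, 99.9 and 101.1 for Bcor-/-, and 69.4 and 48.3 for the double knockout. Groups other than WT and Dnmt3a-/- did not overlap, in the order WT, Bcor-/-, double knockout. The log2 fold change of the double knockout against WT was -1.30 (SE 0.16, limma adjusted p = 0.000427). In MEP Etv6 measured 31.3, 19.8 and 41.2 FPKM in WT and 52.8 and 20.6 in the double knockout, with overlapping groups and a log2 fold change of 0.16 (SE 0.43). Tet1, a 5-methylcytosine dioxygenase, had the LSK profile most like that of Etv6 (root mean square difference 0.0936 over 10 libraries). Etv6 exons overlap an antisense transcript, Gm17089, in the GRCm38 annotation, those of Elf1, Gabpa and Elk3 overlap genes of the opposite strand (Wbp4, Atp5j and Cdk17), and whether reads were counted by strand is not stated.

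Elk3, a ternary complex factor, was called lower in LSK and higher in MEP. In LSK it measured 36, 36.1 and 34.3 FPKM in WT and 30.7 and 15.5 in the double knockout (log2 fold change -0.67, SE 0.22, limma adjusted p = 0.0505). Without double knockout mouse 2 the LSK change was -0.20 and was no longer called. In MEP the WT values were 4.46, 3.20 and 7.26 FPKM and the double knockout values 22.9 and 7.13, so the groups overlapped (log2 fold change 1.28, SE 0.47, limma adjusted p = 0.067). Without double knockout mouse 1 the MEP change was 0.50 and was no longer called. Neither call of Elk3 therefore held without 1 of the 2 mice.

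Spi1 and Elf1 were called in MEP and not in LSK. Spi1 in LSK measured 80.5, 83.5 and 79.5 FPKM in WT and 72.1 and 72.3 in the double knockout (log2 fold change -0.17, SE 0.12, limma adjusted p = 0.335). In MEP it was 10.7, 4.81 and 12.1 FPKM in WT, with 16.2, 6.38 and 3.22 for Dnmt3a-/-, 14.5 and 11.2 for Bcor-/-, and 37.2 and 28.2 for the double knockout. Both MEP double knockout values were above all others (log2 fold change 1.80, SE 0.55, limma adjusted p = 0.0375). Elf1, an activator expressed across blood lineages, measured 121.1, 107.0 and 102.6 FPKM in LSK of WT, against 119.7 and 92.0 for the double knockout. In MEP it was 47.8, 38.9 and 56.7 FPKM in WT and 113.9 and 60.7 in the double knockout, a log2 fold change of 0.80 (SE 0.27, limma adjusted p = 0.0486).

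Fli1, a factor of stem cells and megakaryocytes, followed a similar course in MEP. It measured 10.7, 5.48 and 15.0 FPKM in WT MEP and 27.1 and 22.6 in double knockout MEP (log2 fold change 1.27, SE 0.40, limma adjusted p = 0.0394). In LSK it was 36.1, 34.5 and 33.9 FPKM in WT and 29.1 and 53.4 in the double knockout, on either side of WT, and it was called higher without mouse 1 (0.60). Gabpa, which encodes the DNA-binding subunit of GABP, varied least. Its LSK values were 23.9, 23.8 and 22.2 FPKM in WT and 25.4 and 21.3 in the double knockout (log2 fold change -0.0027, SE 0.11), and its MEP values were 23.4, 24.9 and 26.4 in WT and 27.0 and 32.2 in the double knockout (log2 fold change 0.24, SE 0.13). Of its partner subunits, Gabpb1 was called lower in LSK (-0.77, SE 0.23) and higher in MEP (0.60, SE 0.15), and Gabpb2 was called higher in LSK (0.59, SE 0.13). The Gabpb1 call in LSK was lost without double knockout mouse 2. The calls of Gabpb1 in MEP and of Gabpb2 in LSK were lost without double knockout mouse 1.

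In double knockout MEP as a whole 6 of the 10 members were called, and all 6 were higher, namely Spi1, Spib, Fli1, Ets1, Elf1 and Elk3. Over 10933 genes tested 30.9% were called, 18.5% higher and 12.4% lower. With adjusted p 5 members were called against 25.2% of all genes. The median log2 fold change was 1.28 over the members and 0.0176 over all genes. Quantile scaling shifted the latter to -0.18 and turned the share of higher genes among all MEP calls from 59.8% to 37.2%, and in LSK from 53% to 42.3%. The calls of Spi1, Fli1, Elf1 and Elk3 in MEP were lost when each genotype was given its own variance (p from 0.109 to 0.228), which left Spib and Ets1. Without double knockout mouse 1 the members called in MEP were 3, namely Spib, Ets1 and Ets2. The Elf1 call was also lost without WT mouse 2 (0.67), under quantile scaling (0.79) and with the compared genotypes fitted alone, and the Elk3 call without WT mouse 1 (1.24) or WT mouse 2 (1.05). The 10 erythroid markers summed to 5100 FPKM in mouse 1 and 68850 in mouse 2, against 3628 to 5182 in WT MEP, and their part in these calls was not tested. The sum of mouse 1 joined opposite changes, with Hba-a1 at 1055 FPKM against 110 to 280 in WT and Car1 at 1475 against 2686 to 3713. In mouse 2 Hba-a1 alone measured 55204 FPKM, while Hbb-b1 read 0.

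**Figure D3:**
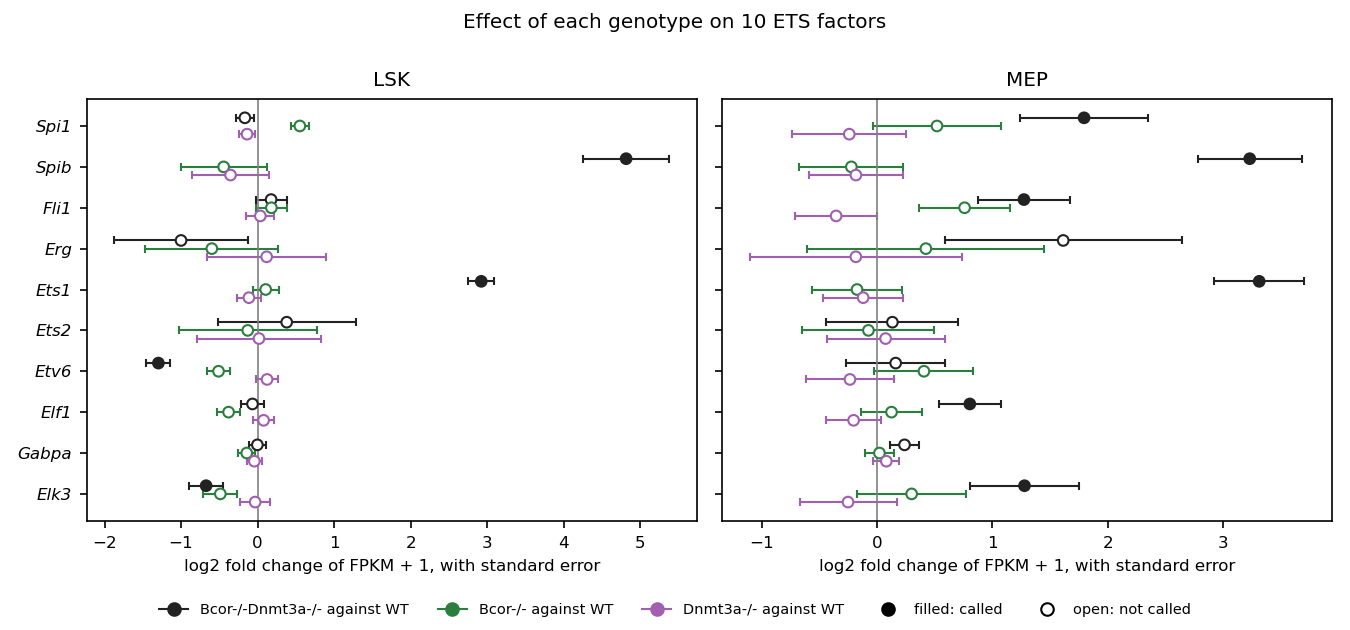
Log2 fold change of FPKM + 1 against WT with its standard error for each ETS factor in LSK (left) and MEP (right), for the double knockout, Bcor-/- and Dnmt3a-/-; filled points passed p under 0.05 and a fold above 1.5. Filled points all belong to the double knockout, 4 in LSK and 6 in MEP.

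Erg and Ets2 were the members in which the double knockout mice disagreed most. Erg, needed for stem cell maintenance, measured 85.5, 78.2 and 88.2 FPKM in LSK of WT, against 169.4 and 9.56 for double knockout mice 1 and 2. In MEP it was 6.79, 6.98 and 11.4 FPKM in WT and 123.7 and 5.30 in those mice. Mouse 1 was thus above and mouse 2 below every WT library in both populations, with 17.7-fold and 23.3-fold between them. Replicates of Erg in other genotypes differed at most 1.26-fold in LSK and 3.29-fold in MEP. Ets2, a target of growth factor signalling, showed the mirror image. It measured 11.9, 9.5 and 11.9 FPKM in LSK of WT, against 2.70 and 65.4 in mice 1 and 2, and in MEP 4.14, 4.02 and 5.32 in WT and 1.53 and 13.1 in those mice. Mouse 1 was below and mouse 2 above all WT libraries, 24.2-fold apart in LSK and 8.58-fold in MEP, against at most 1.25-fold and 1.32-fold elsewhere.

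Averages of these 2 genes over the double knockout mice describe neither mouse, and none of their changes was called in that comparison. The Erg log2 change in LSK was -1.0 (SE 0.87, limma adjusted p = 0.42), and became 1.01 without mouse 2 and -3.01 without mouse 1. For Ets2 it was 0.38 (SE 0.90), then -1.70 and 2.46. Erg and Ets2 are adjacent on chromosome 16, with 0 protein-coding genes between them in the RefSeq order of GRCm38.p6. Fli1 and Ets1 form a like pair on chromosome 9, also with 0 protein-coding genes between them. In that pair Ets1 was higher in both mice and both populations, while Fli1 in LSK was lower than every WT library in mouse 1 and higher in mouse 2. In MEP both Fli1 and Ets1 were above every WT library in both mice. The Fli1 to Ets1 ratio in LSK fell from 2.11 to 3.44 in WT to 0.298 and 0.496.

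**Figure D4:**
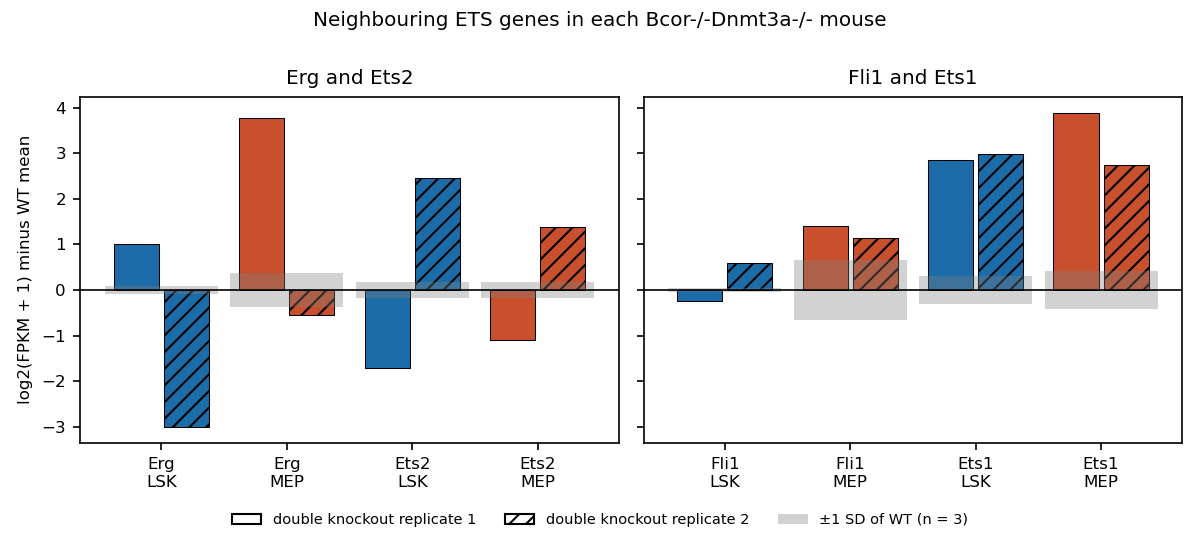
Log2(FPKM + 1) of each double knockout mouse minus the WT mean for the neighbouring genes Erg and Ets2 (left) and Fli1 and Ets1 (right), in LSK (blue) and MEP (orange); the grey band is 1 SD of WT, n = 3. Erg and Ets2 go in opposite directions within each mouse, and Ets1 is up by 2.73 to 3.9 in all 4 double knockout libraries.

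Whether the double knockout effect differed between populations was tested on the LSK minus MEP difference of log2 values within each mouse. For 5 of 10 members it did at an adjusted p under 0.05, against 20.5% of 10773 genes. The tests of Spi1 and Elf1 were the least stable of these, being lost in 8 and in 6 of the 10 fits without 1 mouse. All 5 effects were more negative in LSK, by -2.61 for Erg (SE 0.36, limma adjusted p = 0.00375), -1.96 for Spi1 (SE 0.59, 0.0448), -1.95 for Elk3 (SE 0.35, 0.00793), -1.46 for Etv6 (SE 0.33, 0.0178) and -0.87 for Elf1 (SE 0.26, 0.0457). In WT these genes were all higher in LSK than in MEP, and in the double knockout the LSK minus MEP difference shrank, for Spi1 from 3.10 to 1.13 and for Elk3 from 2.67 to 0.72 on the log2 scale. The difference for Spib was in the other direction (1.58, SE 0.66, limma adjusted p = 0.116) and did not pass. Without mouse pairing 2 of the 5 remained, Spi1 and Elk3, and with 1 variance per genotype 0 did (p under 0.05 in 3 members, Erg, Etv6 and Elk3). Ly6a, which encodes the Sca1 antigen of the LSK gate, was at 17.8 FPKM in MEP of mouse 1 and 1.87 in MEP of mouse 2 against 0 to 0.79 in WT MEP. The part of unlike sorted populations in these differences was not tested.

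Loss of Bcor alone gave no calls among the members. In Bcor-/- LSK 0 of 10 members passed the thresholds in limma, against 13.2% of all genes, and 3 had an unadjusted p under 0.05, namely Spi1, Etv6 and Elf1, against 25% of all genes. Spi1 measured 106.5 and 134.0 FPKM, above all WT libraries, a log2 difference of 0.55 (SE 0.12, limma adjusted p = 0.0324) that lay just under the fold limit. Etv6 differed from WT by -0.51 (SE 0.16, limma adjusted p = 0.0825) and Elf1 by -0.38 (SE 0.15, limma adjusted p = 0.15). Both Bcor-/- libraries were outside the WT range for 7 of 10 members, above it for Spi1 and Fli1 and below it for Erg, Etv6, Elf1, Gabpa and Elk3, as they were for 54% of all genes. Erg was at 61.7 and 49.1 FPKM in Bcor-/- LSK. Its log2 difference of -0.60 had an SE of 0.87 because the spread was shared with the double knockout, and it was called when the 2 genotypes were fitted alone (limma adjusted p = 0.0274) or without either double knockout library. Spi1 was called without Bcor-/- mouse 1 (0.72) and Etv6 without WT mouse 2 (-0.59). The 7 granulocyte and monocyte markers summed to 15060 and 22870 FPKM in the Bcor-/- LSK libraries against 2371 to 7896 in WT, and their part in the Spi1 level was not tested. The 9 stem cell markers summed to 883 and 599 FPKM in these libraries against 1159 to 1368 in WT, and the 10 erythroid markers to 581 and 936 against 126 to 239. Their part in the lower Erg, Etv6, Elf1, Gabpa and Elk3 levels was not tested.

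In Bcor-/- MEP 0 of 10 members were called in limma, against 2.76% of all genes, and none had an unadjusted p under 0.05. Fli1 came closest, with 16.8 and 17.3 FPKM against 5.48 to 15.0 in WT (log2 difference 0.76, SE 0.40, limma adjusted p = 1). Given its own variance per genotype, Fli1 alone was called, as it was without WT mouse 3. The Bcor-/- effect differed between populations in 0 members at an adjusted p under 0.05 in limma, against 0.538% of genes, with unadjusted p under 0.05 for Erg (-1.02, SE 0.36) and Etv6 (-0.92, SE 0.33), a threshold passed by 18.4% of genes. Loss of Dnmt3a alone gave 0 of 10 calls in limma in LSK, against 0.443% of all genes, and 0 of 10 in MEP, against 0.412%. No member had an unadjusted p under 0.05 in either, the lowest being 0.237 in LSK and 0.343 in MEP.

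The double knockout was also set against Bcor-/-, 2 genotypes that differ by label in Dnmt3a. In LSK 4 members were called against 30.6% of genes, Spib and Ets1 higher, and Etv6 (-0.79, SE 0.17, limma adjusted p = 0.00941) and Spi1 (-0.72, SE 0.13, limma adjusted p = 0.00452) lower. Spi1 was thus higher than WT in both Bcor-/- libraries and lower than WT in both double knockout libraries. The Spi1 call was lost without Bcor-/- mouse 2 (-0.55) and the Etv6 call without double knockout mouse 2 (-0.53). In MEP 3 members were called, all higher (Spib, Ets1 and Elf1), against 27.9% of genes called and 16.5% called higher. The Elf1 call (limma adjusted p = 0.121) was lost in most alternative settings.

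The make-up of the whole family shifted with these changes. The summed FPKM of all 26 ETS genes in the tables was 661 to 734 in WT LSK, 579 and 586 in Bcor-/- LSK, and 902 and 846 in the double knockout. In MEP it was 182 to 254 in WT and 688 and 362 in the double knockout. Ets1 and Spib together held 2.24% of that sum in WT LSK and 23.9% in the double knockout on average (15.7% in mouse 1 and 32.2% in mouse 2), and 3.06% and 15.2% in MEP. Etv6 held 19.4% to 21.8% in WT LSK, 17.2% in both Bcor-/- libraries, and 7.70% and 5.71% in the double knockout. With 2 against 3 libraries an exact permutation test cannot go below p = 0.1, so these shares are given without a call.

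**Figure D5:**
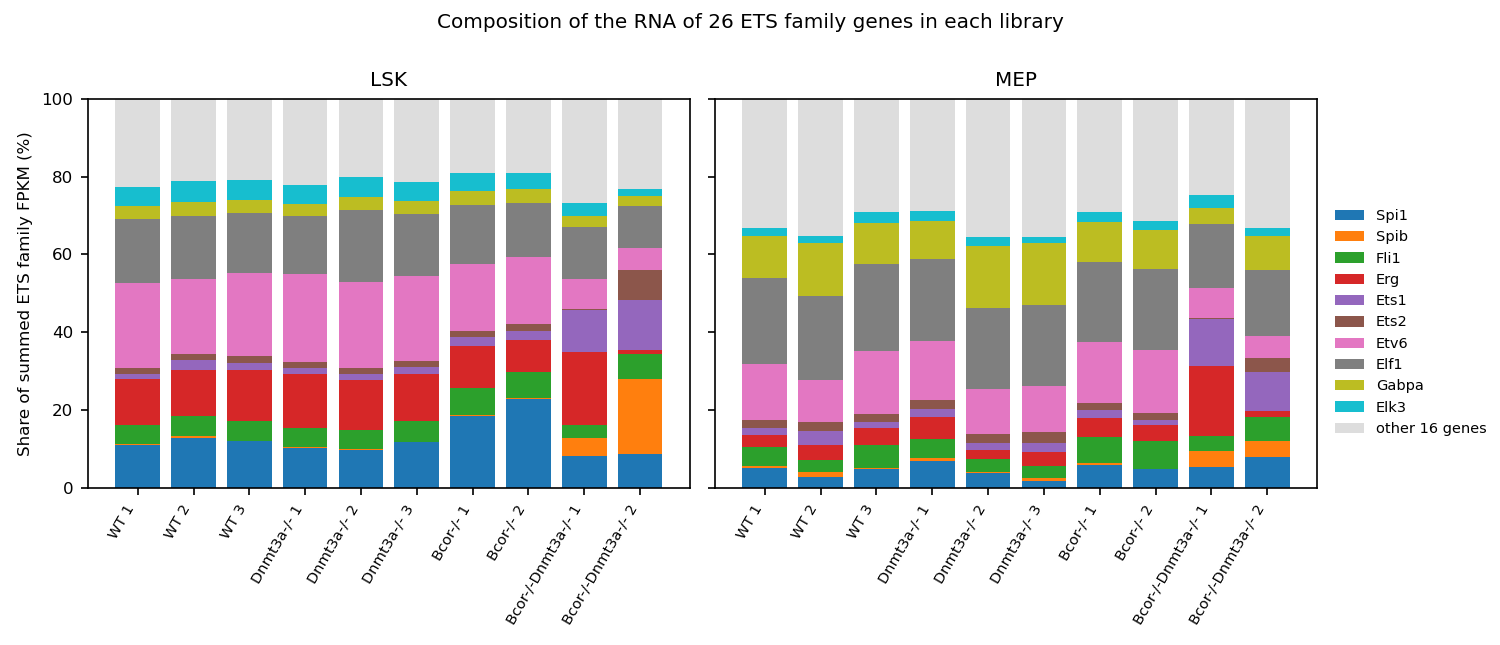
Share of the summed FPKM of 26 ETS genes held by each of the 10 members and by the other 16 genes, as stacked percent, in each LSK (left) and MEP (right) library. Ets1 (purple) widens to 10.9% and 12.7% in double knockout LSK, Etv6 (pink) narrows to 7.70% and 5.71%, and Erg (red) is wide in mouse 1 and narrow in mouse 2.

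Of the other 16 family genes 8 were tested. In double knockout LSK 1 was called higher, beside 15% of all genes, Elk4, a ternary complex factor like Elk3, with a log2 fold change of 1.54 (SE 0.16, limma adjusted p = 0.000212). In MEP 3 were called higher, beside 18.5% of all genes, Elk4 (1.64, SE 0.14), Elf4 (1.08, SE 0.28) and Etv3 (1.02, SE 0.16), and none lower in either population. The median log2 fold change of these 8 genes in the double knockout was 0.19 in LSK and 0.92 in MEP. Without double knockout mouse 1 it was -0.26 in LSK and 0.29 in MEP, and without mouse 2 it was 0.0286 and 1.26. Spic, the macrophage relative of PU.1, and Etv5 were further genes on which the mice split, since both were called higher in MEP without mouse 2, while without mouse 1 Etv5 was called lower and Spic was not called. Spic reached the filter in MEP only through the double knockout libraries, and the MEP median without it was 0.81. In Bcor-/- LSK 3 of the 8 tested genes were called lower (Elk1, Elk4 and Etv3) and 0 higher, and 6.03% of all genes were called lower. Elk4 there differed from WT by -0.65 (SE 0.16, limma adjusted p = 0.0452), opposite to its change in the double knockout. In Bcor-/- MEP 0 were called.

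Partners and antagonists of ETS factors, 13 genes, were split in LSK, with 5 called higher and 3 lower, beside 15% and 13.3% of all genes, and a median of -0.0524. The LSK median was -0.0645 without double knockout mouse 1 and -0.00895 without mouse 2. Runx1 measured 26.6 and 14.6 FPKM in LSK of mice 1 and 2 against 24.8 to 28.1 in WT. Cbfb measured 68.1 and 49.5 against 73.3 to 83.1, and Srf 11.5 and 34.0 against 17.3 to 19.3. Irf4, which binds DNA together with PU.1 and Spi-B, rose by 4.04 (SE 0.64) in LSK and by 3.08 (SE 0.37) in MEP. Gata1, the erythroid antagonist of PU.1, rose by 1.94 (SE 0.27) in LSK, and its MEP change was -0.53 (SE 0.41) without a call. The Spi1 to Gata1 ratio in LSK was 6.18 to 10.3 in WT and 1.64 and 1.66 in the double knockout, whereas in MEP it was 0.0214 to 0.0714 in WT and 0.521 and 0.118. The 2 populations of double knockout mice were therefore closer in this ratio than those of WT. Klf1, the erythroid factor opposed to Fli1, rose by 3.14 (SE 0.42) in LSK. Gata2 changed by -3.08 (SE 0.31) there, and Lmo2 fell by 1.89 (SE 0.15). In MEP 4 partners were called, all higher (Cbfb, Gabpb1, Irf4 and Lyl1), beside 18.5% of all genes, with a median of 0.37 over the list. Without mouse 2, 5 MEP partners were called higher and 6 lower, Gata1, Gata2, Klf1, Lmo2, Srf and Tal1, and without mouse 1 the counts were 3 and 0.

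Known targets of PU.1 were called together in MEP. Of 16 such genes 13 were called higher and 0 lower in double knockout MEP, beside 18.5% and 12.4% of all genes, with a median log2 fold change of 2.44 against 0.0176 for all genes. The count was 12 without mouse 1 and 14 without mouse 2. Cd14 and Tlr4 reached the filter on low values only through the double knockout libraries, and leaving them out gave 11 of 14. Cybb, a subunit of the phagocyte oxidase, rose by 4.39 (SE 0.36), Csf1r, the receptor of macrophage colony-stimulating factor, by 3.82 (SE 0.71), and Itgam by 3.18 (SE 0.39). In LSK 6 were called higher, among them Il7r (4.18, SE 0.62), and 2 lower, Csf3r (-2.05, SE 0.16) and Flt3 (-1.69, SE 0.21), with a median of 0.53, beside 15% and 13.3% of all genes. The 7 granulocyte and monocyte markers summed to 3242 and 7084 FPKM in double knockout MEP against 148 to 476 in WT, and their part in the Spi1 level and in these genes was not tested. S100a8 alone held most of that sum, at 2988 and 6713 FPKM against 120 to 244 in WT, while Elane and Mpo of mouse 1 (36.7 and 55.1) were within the WT range. Csf1r and Itgam are in both lists.

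Megakaryocyte genes, known targets of Fli1, were called in the other direction. Of 9 tested, 4 were called lower in double knockout LSK (13.3% of all genes) and 3 in MEP (12.4% of all genes), and 0 higher, with median log2 fold changes of -0.50 and -0.85. Pf4, a chemokine of platelet granules, fell by 3.99 (SE 0.60) in MEP and by 2.10 (SE 0.46) in LSK. Fli1 itself was not called in LSK and was called higher in MEP. That MEP call was lost without mouse 1 and when each genotype was given its own variance. The part of Fli1, or of the cells sorted, in these genes was not tested. Lower calls in MEP numbered 2 without mouse 1 and 7 without mouse 2, and 1 gene was called higher without mouse 1 in each population (Itgb3 in LSK, Gp9 in MEP).

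Of 10 stem cell and endothelial targets of Erg and Fli1, 7 were called lower in LSK (13.3% of all genes) and 1 higher (15%), Cdh5, with a median of -1.46. Cdh5 reached the filter on low values only through the double knockout libraries (mean of the other 8 libraries 0.284 FPKM), and the median without it was -1.49. The angiopoietin receptor Tek changed by -2.30 (SE 0.23) and its relative Tie1 by -4.01 (SE 0.39). The lower calls were 8 without mouse 1 and 6 without mouse 2, the libraries that remain being those with low and with high Erg respectively. In MEP 3 of 8 were called lower and 1, Gfi1, higher, beside 12.4% and 18.5% of all genes, with a median of -0.95.

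Serum response genes, which Elk3 and Elk4 share, depended on the mouse. In LSK 2 of 7 were called lower (Egr1 and Fos) and in MEP 1 of 6 (Egr1), beside 13.3% and 12.4% of all genes. Egr2 reached the filter in MEP only through the double knockout libraries, and leaving it out gave 1 of 5. Without mouse 1, 4 were called higher in LSK (Egr2, Egr3, Fosb and Junb) and 0 lower, with a median of 1.68. Without mouse 2, 5 were called lower (Egr1, Fos, Fosb, Ier2 and Junb) and 0 higher, with a median of -2.30. In MEP the median over the 6 genes was -0.0529 with both mice, 0.758 without mouse 1 and -1.09 without mouse 2. Egr1, the gene called there, measured 5.54 and 62.1 FPKM in MEP of mice 1 and 2 against 39.8 to 129 in WT. Ets2 was high in the mouse with the higher values of this list and low in the other.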

How the data were processed

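Poly(A) RNA of sorted LSK and MEP cells was sequenced by the authors, who deposited 1 table of FPKM per population. The submitters' processing notes name STAR 2.5.1b, SAMtools 1.9, Cufflinks 2.2.1 and the mm9 build without their roles, and how libraries were scaled to each other is not given in the sources used here. A pseudocount of 1 was added to the deposited FPKM before taking log2, and a gene was kept where its average across the 10 libraries of a population reached 1 FPKM. limma 3.58.1 (R 4.3.3) fitted 1 mean per genotype with a mean-variance trend. The study's thresholds (p under 0.05, fold above 1.5) defined calls, and fold changes, on the log2(FPKM + 1) scale, understate low genes. Population differences used LSK minus MEP per mouse, paired because the labels name the same mouse or pool (correlation of deviations 0.00065 to 0.559). Whether replicates share a litter is not given. Likeness was the root mean square difference of log2 profiles, each centred on its WT mean. The genes named are the 10 members, the 2 genes most like each member called in a population, and members of gene lists written down by hand. Members and lists were chosen with earlier results of these data known. Scripts were tested on simulated data. Promoter sequences came from RefSeq, GRCm38.p6, and that annotation also gave the order of neighbouring genes. Exon overlaps came from GENCODE for GRCm38. Figures used Python 3.11.15 and matplotlib 3.10.9. Alternatives covered pseudocount, filter, scaling, samples fitted, replicate block, variance model, thresholds and each library left out, and leaving out each double knockout library for list counts was added after seeing the data. The protein comparison planned for the members was not made.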

Additional observations from a re-analysis of the deposited data

Results flagged for a closer look

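The effect of losing both genes differed between LSK and MEP in 5 ETS factors by limma's test on the within-mouse difference. The LSK effect minus the MEP effect was -1.96 for Spi1 (adjusted p = 0.0448), -2.61 for Erg (adjusted p = 0.00375), -1.46 for Etv6 (adjusted p = 0.0178), -0.87 for Elf1 (adjusted p = 0.0457) and -1.95 for Elk3 (adjusted p = 0.00793), each on the log2 scale. Spi1 lost its call in 8 of the 10 fits without 1 mouse, among them each WT mouse and each double knockout mouse, and with a pseudocount of 0.1 (adjusted p = 0.0539), and Elf1 lost its call in 6 of the 10 fits. Etv6 lost its call without WT mouse 1 (adjusted p = 0.0575) or WT mouse 2 (adjusted p = 0.0617).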

How the results depend on the processing

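With 1 library left out, Erg in LSK ran from -3.01 to 1.01 against WT and from -2.41 to 1.60 against Bcor-/-. Ets2 ran from -1.70 to 2.46 and from -1.57 to 2.59 in LSK, and from -1.11 to 1.37 and from -1.03 to 1.45 in MEP. These reversals came from leaving out double knockout mouse 2. Erg in MEP, not called with both mice, ran from -0.54 to 3.77 and from -0.96 to 3.35, negative without mouse 1. Counts of members called with 1 library left out ran from 4 to 7 for the double knockout against WT in LSK and from 3 to 8 in MEP, from 3 to 7 and from 2 to 6 against Bcor-/-, and from 0 to 1 for Bcor-/- against WT in both populations. The count of effects that differed between populations ran from 2 to 6, and was 2 with no replicate block and 0 with 1 variance per genotype. One variance per genotype left 2 calls in double knockout MEP, and 0 with adjusted p, a combination added after the data were seen. That combination left 2 in LSK and 0 in MEP against Bcor-/-, and a fold above 2 left 2 in LSK. Bcor-/- against WT gave 1 call in LSK under quantile scaling or with these genotypes fitted alone, and 1 in MEP with 1 variance per genotype. Replicate numbers did not pair genotypes (correlation -0.0585 to 0.0871 in LSK and -0.193 to 0.336 in MEP, where not every pair exceeded 0.1), and a replicate block kept the counts against WT at 4 and 6 and gave 4 in MEP against Bcor-/-. Ets1 and Spib held 21.5% of the 10 members' sum in double knockout MEP, against 15.2% of the family's. Spib and Ets1 kept their calls against WT in both populations without either double knockout mouse. The causes were not tested, and depth is unknown.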
